A study of Mus musculus with 18 samples.

Results

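Collagens and laminins are the structural proteins of the extracellular matrix, and their genes were followed here through early mesoderm. The members were taken by symbol, as every row of the expression table named as a collagen chain (Col, a type number, a and a chain number) or a laminin chain (Lama, Lamb or Lamc and a number). There were 55 such genes among the 20321 rows of the table. They comprised 11 fibrillar collagen genes, 17 genes of basement membranes (6 of collagen IV and 11 of laminin) and 27 other collagen genes.

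The libraries came from mouse GFP-Bry embryonic stem (ES) cells, a line in which green fluorescent protein (GFP) is knocked into the Brachyury locus and so reports nascent mesoderm. Embryoid bodies (EBs), the aggregates in which ES cells differentiate, were taken at day 3, and GFP+ cells were sorted by endoglin (E, encoded by Eng) and Flk-1 (F, encoded by Kdr) on their surface. E+F+ cells, E+F- cells and unsorted EB cells were then reaggregated for 24 h in the presence of 10 µM IWR-1, an inhibitor of canonical Wnt signalling, or of its vehicle DMSO. Each of the 6 groups held 3 libraries, numbered Set 1 to Set 3, so that there were 18 in all and every group derived from this single cell line. The authors describe the samples of their RNA-Seq comparison of E+F+ and E+F- cells as 3 independent biological ones. The labels do not say whether the Sets came from separate cultures, so p-values measure the spread between these libraries. The ES cells had been kept on mouse embryonic fibroblasts, which preplating was used to remove before EBs were formed, and only GFP+ cells entered the sorted populations. RNA was taken from whole reaggregates, so fewer cells of a type and less RNA per cell cannot be told apart.

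Every collagen is a trimer of α chains wound around one another. Fibrillar collagens (types I, II, III, V, XI, XXIV and XXVII) build the fibres of connective tissue and cartilage. Collagen IV forms the sheet-like network of basement membranes, the thin matrix under epithelia and around blood vessels, and laminins, each an assembly of an α, a β and a γ chain, form the sheet that faces the cells. The other collagens decorate fibres, span the plasma membrane or build microfibrils.

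Libraries held 19725500 to 26649631 expected counts, the number of reads that the program RSEM assigned to genes. Levels are given as TPM, RSEM's length-scaled share of the transcripts of a library. In libraries taken after reaggregation, Kdr stood at 7.69 to 13.37 TPM in E+F+ DMSO and at 25.15 to 75.31 TPM in E+F- DMSO, against the direction of the labels, and Eng overlapped, at 4.41 to 7.5 and 2.58 to 7.07 TPM. Kdr was not measured at the sort, so a change during reaggregation and a fault in the labels cannot be told apart by this gene. The groups are used as labelled. Other genes did not overlap between the groups. Gata1, an erythroid transcription factor gene, was at 33.07 to 93.05 TPM in E+F+ DMSO and 0.63 to 2.26 TPM in E+F- DMSO, while Mesp1, of nascent mesoderm, was at 0.14 to 0.34 and 201.86 to 219.71 TPM. Brachyury itself (T) was at 0.14 to 0.21 TPM in E+F+ DMSO and at 218.03 to 493.89 TPM in E+F- DMSO. All 11 genes of a list for primitive streak and presomitic mesoderm were called lower in E+F+ cells under either treatment, in the test described below. Over all tested genes 13.8% were called lower under DMSO and 12.1% under IWR-1. Set 3 stood apart within several groups. Summed TPM of a smooth muscle and mesenchyme list of 9 genes was 554.5 in E+F- DMSO Set 3 against 152 and 170 in Sets 1 and 2, and that of a primitive erythroid list of 10 genes was 172 against 11.04 and 17.2. Results that rest on Set 3 are therefore also given without it. Leaving out a library that runs against a difference enlarges that difference in advance. Calls gained in this way do not replace the result with all libraries.

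Among collagen and laminin transcripts of these reaggregates, those of collagen IV and laminins made up the larger part. Collagen IV and laminin genes held 59.6% to 74.2% of the summed TPM of all members in a library, and fibrillar collagens held 6.23% to 19.6%. The summed level of all members was 237.8 to 451.9 TPM in E+F- DMSO, 345.2 to 482 TPM in E+F+ DMSO and 404.8 to 700.6 TPM in unsorted DMSO libraries. These ranges overlapped. Each class was led by few genes. Col5a1, whose chain belongs to the type V collagen that helps to start type I fibrils, held 27.6% to 67.3% of the fibrillar sum. Col18a1, which encodes the basement membrane collagen from which endostatin is cut, held 70.8% to 78.7% of the sum over other collagens in E+F+ libraries and 14.5% to 60.5% in E+F- libraries.

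**Figure D1:**
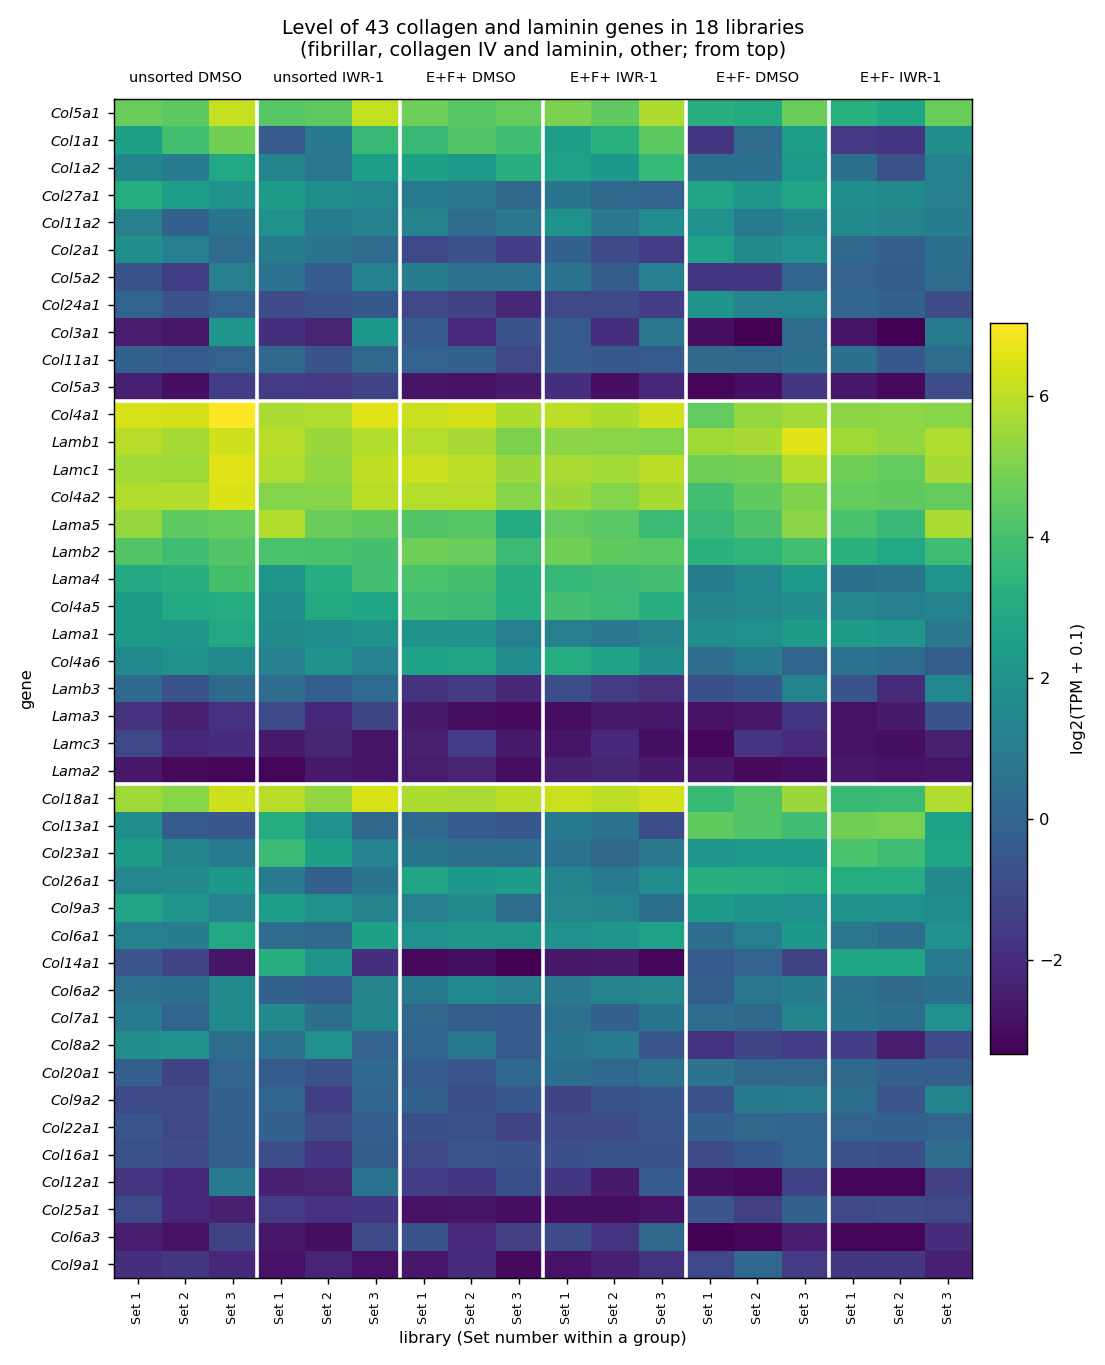
Level of 43 of the 44 tested collagen and laminin genes (rows) in each of the 18 libraries (columns), as log2(TPM + 0.1). White lines separate the 6 groups and, from top to bottom, fibrillar collagens, collagen IV with laminins, and other collagens. Col4a1, Lamb1, Lamc1 and Col18a1 are among the brightest rows, and Col3a1 and Col12a1 are bright in Set 3 of the unsorted groups.

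The main contrast was that of E+F+ with E+F- cells. Of the 44 members whose counts were high enough to be tested, 18 differed between these populations under DMSO (edgeR quasi-likelihood test, Benjamini-Hochberg adjusted p under 0.05), 8 higher in E+F+ and 10 lower. That is 40.9% of the tested members, where 26.6% of all 13826 tested genes were called, 12.8% higher and 13.8% lower. Under IWR-1, 16 members differed, 9 higher and 7 lower, where 22.5% of all tested genes were called, 10.4% higher and 12.1% lower. The classes differed in direction under DMSO, but the fibrillar direction did not hold under IWR-1. All 4 tested collagen IV genes and 2 of 11 laminin genes were higher in E+F+ under DMSO, and 1 laminin gene was lower. Among fibrillar collagens 1 of 11 was higher and 3 were lower, and among 18 other collagens 1 was higher and 6 were lower. The median log2 difference was 1.68 for collagen IV, -0.18 for laminins, -0.44 for fibrillar and -0.68 for other collagens, beside -0.01 over all tested genes. Under IWR-1 these medians were 1.64, -0.37, 0.21 and -0.71, beside -0.01, and 1 fibrillar gene was called higher and 1 lower. Under DMSO on the log2(TPM + 0.1) scale, where the median of all genes fell to -0.12, 17 members were called, 9 higher and 8 lower. That was beside 25.8% of all genes, and the share of higher calls among all genes was 32.0% in place of 48.1%.

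Every tested collagen IV gene was higher in E+F+ than E+F- cells under DMSO. The major chains, Col4a1 and Col4a2, form the α1α1α2 trimer found in nearly all basement membranes. Col4a1 was at 73.4, 83.4 and 54.25 TPM in E+F+ DMSO (Sets 1, 2 and 3, the order used throughout) and at 23.1, 42.1 and 48.3 TPM in E+F- DMSO. Col4a2 was at 57.96, 58.2 and 35.1 TPM in E+F+ and 15.2, 22.9 and 32.1 TPM in E+F-. No E+F- library reached the lowest E+F+ library for either gene. The log2 difference was 1.03 ± 0.26 (adjusted p = 0.00948) for Col4a1 and 1.24 ± 0.26 (adjusted p = 0.00282) for Col4a2 (± standard error). Both calls were lost when Set 1 or Set 2 was left out of all 6 groups (adjusted p up to 0.114 and 0.0785). Under IWR-1 the 2 genes were again higher in E+F+ cells, by 0.80 and 0.88 (adjusted p = 0.0363 and 0.0226). The IWR-1 calls of both genes were lost when any 1 library other than E+F+ Set 2 was left out, with adjusted p up to 0.14 for Col4a1 and 0.0897 for Col4a2, and limma on log2(TPM + 1) or log2(TPM + 0.1) did not call Col4a1.

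Col4a5 and Col4a6, minor chains that assemble into α5α5α6 trimers in a few basement membranes such as that of smooth muscle, were higher in E+F+ cells as well. Col4a5 was at 14.5, 13.7 and 8.47 TPM in E+F+ DMSO and 2.42, 2.77 and 3.41 TPM in E+F- DMSO, a log2 difference of 2.21 ± 0.32 (adjusted p = 0.000227). Col4a6 was at 6.25, 6.58 and 3.21 TPM in E+F+ and 1.2, 1.83 and 0.92 TPM in E+F-, a difference of 2.11 ± 0.41 (adjusted p = 0.00181). Both differences stood under IWR-1, at 2.40 (adjusted p = 0.000214) and 2.41 (adjusted p = 0.00106). The populations did not overlap for either gene under either treatment, and no single left-out library ended these 4 calls. The DMSO call of Col4a6 was lost without Set 1 of all 6 groups (adjusted p = 0.0528). The remaining chains, Col4a3 and Col4a4, which join Col4a5 in the kidney glomerulus, were too low to be tested.

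The 4 expressed collagen IV genes lie in head-to-head pairs, which is why their promoters are shown. Col4a1 (chr8:11198423-11312826, minus strand) and Col4a2 (chr8:11312805-11449287, plus strand) share a chromosome 8 locus, and Col4a5 (chrX:141475385-141689234, plus strand) and Col4a6 (chrX:141165403-141474076, minus strand) share one on the X chromosome (GENCODE M21, GRCm38, whole genes). Each window runs from 250 bases before to 50 bases after a gene's start, as RefSeq gives it on GRCm38. Capitals mark the 78 bases that the Col4a1 and Col4a2 windows have in common, read on opposite strands.
Col4a1 (chr8:11312777-11313076, minus strand): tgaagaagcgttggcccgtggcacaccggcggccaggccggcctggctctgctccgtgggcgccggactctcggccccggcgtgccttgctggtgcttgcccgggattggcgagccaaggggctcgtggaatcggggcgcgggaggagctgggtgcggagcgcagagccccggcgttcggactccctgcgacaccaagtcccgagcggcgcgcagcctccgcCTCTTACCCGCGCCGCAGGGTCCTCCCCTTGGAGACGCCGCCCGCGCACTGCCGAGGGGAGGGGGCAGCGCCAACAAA
Col4a2 (chr8:11312555-11312854, plus strand): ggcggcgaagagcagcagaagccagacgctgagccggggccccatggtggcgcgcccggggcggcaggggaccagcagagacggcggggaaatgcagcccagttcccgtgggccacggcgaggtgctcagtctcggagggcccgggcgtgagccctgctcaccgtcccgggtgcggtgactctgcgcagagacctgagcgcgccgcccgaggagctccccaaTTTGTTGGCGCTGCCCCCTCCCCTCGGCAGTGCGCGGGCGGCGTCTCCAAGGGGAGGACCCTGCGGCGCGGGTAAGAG
Col4a5 (chrX:141475169-141475468, plus strand): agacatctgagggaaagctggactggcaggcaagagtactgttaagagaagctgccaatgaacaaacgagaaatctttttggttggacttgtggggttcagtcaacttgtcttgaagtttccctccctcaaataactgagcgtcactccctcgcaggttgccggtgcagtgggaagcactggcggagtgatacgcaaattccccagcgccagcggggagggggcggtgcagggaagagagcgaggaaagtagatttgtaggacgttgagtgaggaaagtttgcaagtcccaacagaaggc
Col4a6 (chrX:141474027-141474326, minus strand): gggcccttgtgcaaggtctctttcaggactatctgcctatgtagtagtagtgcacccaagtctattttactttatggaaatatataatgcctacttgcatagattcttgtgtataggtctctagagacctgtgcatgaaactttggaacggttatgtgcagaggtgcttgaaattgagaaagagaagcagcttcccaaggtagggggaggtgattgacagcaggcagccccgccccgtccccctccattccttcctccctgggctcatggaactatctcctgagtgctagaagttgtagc
The start sites of Col4a1 and Col4a2 were 21 bases apart and their first exons overlapped by 22 bases, 0.29% and 0.33% of the exon bases of the 2 genes. Reads there cannot be given a strand, because the library kit does not mark it. Those of Col4a5 and Col4a6 were 1343 bases apart, so their windows had no base in common. The X-linked windows were less rich in G and C, at 52.7% and 48.3%, than the chromosome 8 windows, at 74.0% and 73.7%.

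A search of both strands for 4 short motifs described these windows further. The GC box GGGCGG was found 1 time in the windows of Col4a1, Col4a5 and Col4a6 and 3 times in that of Col4a2, and 35.9% of 32544 RefSeq promoters of this length held it. The CCAAT box, spelled CCAAT, was present 1 time in the windows of Col4a1, Col4a2 and Col4a5 (37.4% of all promoters). The TATA box TATAAA (13.6% of promoters) and the TCF/LEF motif CTTTGAT (3.73%) were in none of the 4 windows. None of these motifs contains another.

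Levels within a pair were compared as ratios. The ratio of Col4a1 to Col4a2 TPM ranged from 1.27 to 1.84 over the 18 libraries, while Col4a1 itself ranged from 23.1 to 131 TPM. That of Col4a5 to Col4a6 ranged from 1.51 to 3.71. Col6a1 to Col6a2, which lie on the same strand of chromosome 10 and so not head to head, ranged from 1.14 to 2.85. Pairs of genes on different chromosomes ranged from 0.55 to 1.77 for Lamb1 to Lamc1 and from 0.169 to 7.98 for Col1a1 to Col1a2. The lowest Col1a1 ratios came from libraries with little Col1a1. Whether gene order bears on these ratios was not tested.

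**Figure D2:**
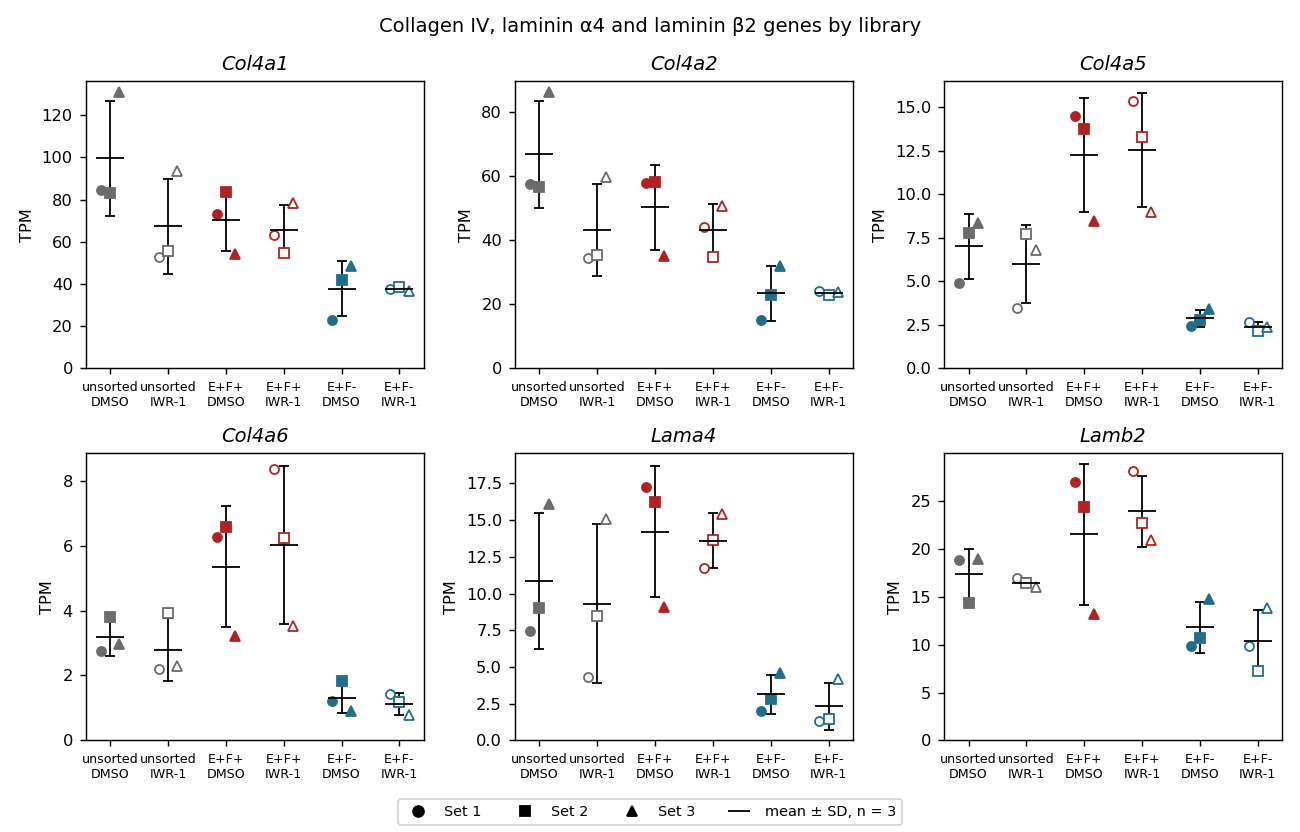
TPM (linear axis from 0) of the 4 expressed collagen IV genes, Lama4 and Lamb2 in every library, by group. Symbols mark the Set, filled for DMSO and open for IWR-1, and bars give the mean ± SD of 3 libraries. Col4a5 lies between 8.47 and 15.37 TPM in the 6 E+F+ libraries and between 2.14 and 3.41 TPM in the 6 E+F- libraries.

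Laminins vary in the chains they combine, and the genes of the common γ1 and β1 chains were abundant in every group. Lamc1, the γ1 gene, was at 73.5, 63.4 and 44.1 TPM in E+F+ DMSO and 26.95, 29.2 and 57.4 TPM in E+F- DMSO (0.81 ± 0.31, adjusted p = 0.0627). Lamb1, the β1 gene, was at 58.03, 51.3 and 31.75 TPM in E+F+ and 46.65, 51.4 and 91.75 TPM in E+F- (-0.29 ± 0.21, adjusted p = 0.335). Neither passed the test, and the ranges of the populations overlapped. Without E+F- Set 3, where both genes had their highest E+F- DMSO value, Lamc1 was called at a difference of 1.17 (adjusted p = 0.0183), and without E+F+ Set 3 at 0.99 (adjusted p = 0.0487). The ratio of Lamb1 to Lamc1 was 0.72 to 0.808 in E+F+ DMSO and 1.6 to 1.76 in E+F- DMSO, with 0.829 to 1.25 in unsorted DMSO libraries between them.

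The β2 chain, an alternative to β1 that is known from the synapse and the glomerulus, did differ. Its gene Lamb2 was at 27.03, 24.4 and 13.2 TPM in E+F+ DMSO and at 9.88, 10.7 and 14.8 TPM in E+F- DMSO, where the ranges overlapped through Set 3 of each population. The log2 difference was 0.99 ± 0.22 (adjusted p = 0.00421), and Lamb2 was higher in E+F+ in 2 of 3 Sets. Under IWR-1 the values were 28.1, 22.75 and 20.9 TPM in E+F+ and 9.9, 7.3 and 13.9 TPM in E+F-, without overlap, and the difference was 1.24 ± 0.22 (adjusted p = 0.00136). No single left-out library ended either call. Both were lost without Set 1 or Set 2 of all 6 groups (adjusted p up to 0.151 under DMSO and 0.0545 under IWR-1). Lamb2 made up 29.2% to 32.2% of β-chain TPM in E+F+ DMSO, 37.6% to 42.3% in E+F+ IWR-1 and 13.6% to 19.3% in the 6 E+F- libraries.

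The α chain gives a laminin its receptor specificity, and under DMSO 1 of the 5 α genes passed the test. Lama4, whose product is the α4 chain of vessel walls, was at 17.3, 16.25 and 9.11 TPM in E+F+ DMSO and 2.01, 2.79 and 4.61 TPM in E+F- DMSO, a difference of 2.32 ± 0.48 (adjusted p = 0.00253). Under IWR-1 it was at 11.7, 13.65 and 15.4 TPM in E+F+ and 1.3, 1.48 and 4.16 TPM in E+F-, a difference of 2.61 ± 0.48 (adjusted p = 0.00163). Every E+F+ library was above every E+F- library, and no single left-out library ended either call. Without Set 2 of all 6 groups both calls were lost (adjusted p = 0.0823 under DMSO and 0.0739 under IWR-1). Lama5, the α5 gene of most mature basement membranes, did not pass the test (-0.40 ± 0.50, adjusted p = 0.601), with 18.7, 19.5 and 8.2 TPM in E+F+ DMSO and 12.5, 17.6 and 37.9 TPM in E+F- DMSO. Its direction turned without E+F- Set 3, to 0.10. Lama1, the α1 gene of the earliest embryonic basement membranes, was at 3.82, 3.8 and 2.1 TPM in E+F+ and 3.28, 3.61 and 5.19 TPM in E+F- (-0.18 ± 0.34, adjusted p = 0.737), and without E+F+ Set 3 its difference was 0.04. Under IWR-1 Lama1 was lower in E+F+ cells without being called (-0.87 ± 0.35, adjusted p = 0.0868), and without E+F- Set 3 it was called (-1.23, adjusted p = 0.0043).

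As a share of summed α-chain TPM, Lama4 held 41.0% to 46.8% in E+F+ DMSO, 31.3% to 49.3% in E+F+ IWR-1, 9.62% to 11.6% in E+F- DMSO and 5.64% to 7.95% in E+F- IWR-1. Lama5 held the largest share in 16 of the 18 libraries. In the other 2, E+F+ DMSO Set 3 and E+F+ IWR-1 Set 3, Lama4 was ahead, at 46.8% and 49.3%. Unsorted libraries were spread from 6.75% to 35.9% Lama4.

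**Figure D3:**
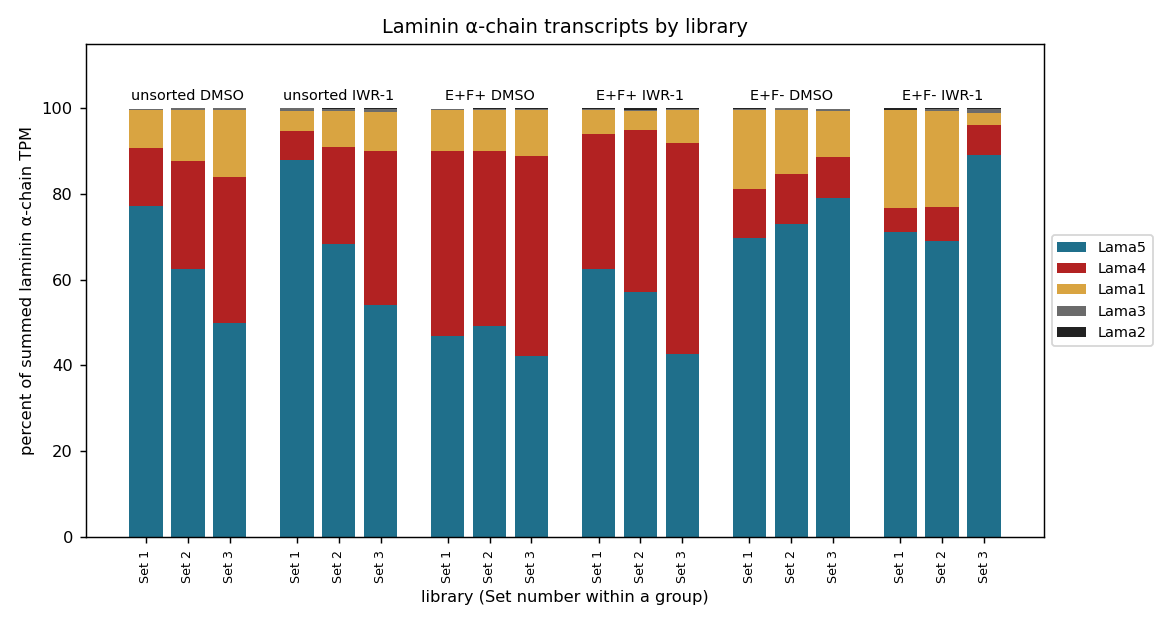
Share of each laminin α-chain gene in the summed α-chain TPM of a library (stacked bars to 100%, 18 libraries in 6 groups). Lama4 takes 31.3% to 49.3% in E+F+ libraries and 5.64% to 11.6% in E+F- libraries, and Lama5 takes most of the remainder.

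The endothelial marker list had the same direction as collagen IV, Lama4 and Lamb2 between E+F+ and E+F- cells, but not in unsorted cells. Of its 10 genes 9 were tested. Under DMSO 7 were called higher in E+F+ cells and 1, Kdr, lower, where 12.8% and 13.8% of all tested genes were. Summed TPM was 169 to 197 in E+F+ DMSO and 77.9 to 134 in E+F- DMSO. Under IWR-1 the sums were 197 to 238 and 100 to 163. Emcn was at most 0.26 TPM in any library. The primitive erythroid list, which was 781 to 4520 TPM in E+F+ DMSO and 11.04 to 172 TPM in E+F- DMSO, moved in the same direction. Parietal and visceral endoderm, whose cells lay down thick basement membranes, was followed by 18 genes. All 18 were tested, and 5 were called higher and 1 lower in E+F+ under DMSO, beside 26.6% of all tested genes called, 12.8% higher and 13.8% lower. Those higher were Dab2 (2.16 ± 0.32, adjusted p = 0.000269), Gata6 (1.61 ± 0.49, adjusted p = 0.0238), Sox7 (1.63 ± 0.46, adjusted p = 0.0163), Ttr (3.84 ± 1.06, adjusted p = 0.0149) and Krt8 (1.56 ± 0.55, adjusted p = 0.0465). Cited1 was lower (-3.17 ± 0.48, adjusted p = 0.00031). Gata6 was at 16.92 to 27.47 TPM in E+F+ DMSO and 3.59 to 10.51 TPM in E+F- DMSO, and Dab2 at 10.42 to 15.9 and 2.03 to 4.22 TPM. The sum was 2737 to 3823 TPM in E+F+ DMSO and 785 to 2368 TPM in E+F- DMSO, most of it Krt8 and Krt18, which other epithelia also express. Afp, Thbd and Ttr never exceeded 0.76, 0.65 and 4.11 TPM in any library. The part of these 3 cell types in the collagen IV and Lama4 results was not tested.

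Lama3 and Lamb3 encode chains of the laminin of epidermal and other epithelial basement membranes. Lama3 never exceeded 0.52 TPM. Lamb3 was at 0.19, 0.24 and 0.13 TPM in E+F+ DMSO and 0.48, 0.62 and 2.38 TPM in E+F- DMSO, and it was called lower in E+F+ (-2.44 ± 0.81, adjusted p = 0.037). The test was not passed without E+F- Set 3 or any 1 of the 3 E+F+ DMSO libraries, with adjusted p up to 0.206, nor in either limma fit. Lamb3 was highest in Set 3 among E+F- DMSO libraries, and the endoderm list of 18 genes was highest in Set 3 as well, at 2368 TPM against 857.5 and 785 in E+F- DMSO, and 1785 against 359 and 328 in E+F- IWR-1, most of it Krt8 and Krt18. Its part in the Lamb3 values was not tested. Lama2, of muscle, and Lamc3 stayed under 0.4 TPM everywhere and passed no test.

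Fibrillar collagens held 1 chain that was called higher in E+F+ under DMSO and 3 that were called lower. Col5a2, which pairs with Col5a1 in type V collagen, was at 2.01, 1.41 and 1.38 TPM in E+F+ DMSO and 0.22, 0.22 and 0.93 TPM in E+F- DMSO, without overlap (1.97 ± 0.67, adjusted p = 0.0404). Col5a2 was not called without any 1 of 5 libraries, all but E+F- Set 3, with adjusted p up to 0.136. Col5a1 was at 26.5, 20.3 and 23.8 and 8.79, 8.19 and 26.1 TPM and was not called (0.87 ± 0.58, adjusted p = 0.291), and E+F- Set 3 lay within the E+F+ range.

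Type I collagen, the main protein of fibres in bone, tendon and skin, varied widely between libraries. Col1a1 was at 12.6, 19.1 and 14.4 TPM in E+F+ DMSO and 0.21, 1.14 and 5.27 TPM in E+F- DMSO. Under IWR-1 it was at 5.47, 9.4 and 21.55 TPM in E+F+ and 0.24, 0.21 and 3.35 TPM in E+F-. E+F+ libraries were above E+F- libraries under both treatments, but the difference did not pass the test, at 3.00 ± 1.17 (adjusted p = 0.0691) under DMSO and 3.37 (adjusted p = 0.0556) under IWR-1. Without E+F- Set 3 it did, at 4.53 (adjusted p = 0.0331) under DMSO and 5.68 (adjusted p = 0.0141) under IWR-1. Col1a2 was at 5.74, 4.67 and 8.88 TPM in E+F+ and 1.24, 1.28 and 4.71 TPM in E+F- under DMSO (1.59 ± 0.64, adjusted p = 0.0778) and at 6.01, 4.52 and 12.04 TPM in E+F+ and 1.31, 0.5 and 2.24 TPM in E+F- under IWR-1, where it was called (2.53 ± 0.66, adjusted p = 0.0131). It was not called without E+F+ Set 3 or E+F- Set 2, with adjusted p up to 0.0605, and the DMSO difference was called without E+F- Set 3 (2.42, adjusted p = 0.0233).

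Col3a1, whose type III fibres accompany type I in vessels and skin, was near 0 outside Set 3 in unsorted and E+F- DMSO libraries. It was at 0.08, 0.06 and 4.28 TPM in unsorted DMSO and 0.03, 0 and 1.18 TPM in E+F- DMSO, against 0.68, 0.14 and 0.52 TPM in E+F+ DMSO. The population difference did not pass the test (0.38 ± 1.90, adjusted p = 0.908), and its sign turned without E+F+ Set 1, E+F- Set 1 or E+F- Set 2, while without E+F- Set 3 the difference was 4.91.

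A list of 14 markers of embryonic fibroblasts, such as those of the feeder layer, was followed beside the fibrillar genes. Of its 7 tested genes, Postn (5.21 ± 1.57, adjusted p = 0.023), Twist2 (3.45 ± 1.02, adjusted p = 0.0209) and Pdgfrb (2.38 ± 0.54, adjusted p = 0.00468) were higher in E+F+ under DMSO, and Thy1 (-1.90 ± 0.31, adjusted p = 0.000479) and Cthrc1 (-3.66 ± 0.51, adjusted p = 0.00017) were lower. Over all tested genes 12.8% were called higher and 13.8% lower. Fap was at 0 in all 18 libraries, and Dcn, Lum and Prrx1 never exceeded 0.22, 0.21 and 0.29 TPM. The summed list was 70.3 to 90.3 TPM in E+F+ DMSO and 59.9 to 67.8 TPM in E+F- DMSO. The smooth muscle and mesenchyme list, at 362 to 549 TPM in E+F+ DMSO and 152 to 554.5 TPM in E+F- DMSO, was high in the same E+F- library as the fibrillar genes. The part of these lists in the fibrillar values was not tested.

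The 3 fibrillar chains that were called lower in E+F+ cells under DMSO are known from the skeleton. Col2a1, the sole chain of type II collagen, was at 0.39, 0.5 and 0.28 TPM in E+F+ DMSO and 6.04, 2.97 and 3.7 TPM in E+F- DMSO (-3.30 ± 0.48, adjusted p = 0.000222). Col27a1, which is expressed in developing cartilage, was at 1.84, 1.69 and 1.04 TPM in E+F+ and 6.55, 4.4 and 6.54 TPM in E+F- (-1.82 ± 0.33, adjusted p = 0.00104). Col24a1, a fibrillar chain of developing bone, was at 0.36, 0.3 and 0.13 TPM in E+F+ and 4.02, 2.33 and 2.45 TPM in E+F- (-3.35 ± 0.42, adjusted p = 8.95e-05), the smallest adjusted p of any member in this comparison. Lower values in every E+F+ library than in every E+F- library marked all 3 genes, and no single left-out library ended their calls. Their genes lie apart, at chr15:97975602-98004695, minus strand (Col2a1), chr4:63214004-63334991, plus strand (Col27a1) and chr3:145292472-145552011, plus strand (Col24a1). Under IWR-1 Col27a1 was still called (-1.31 ± 0.33, adjusted p = 0.00995), at 1.51, 1.06 and 0.86 TPM in E+F+ and 3.28, 3.04 and 2.18 TPM in E+F-, though not without E+F+ Set 3 (adjusted p = 0.0503). Col2a1 (-1.05 ± 0.45, adjusted p = 0.113) and Col24a1 (-1.06 ± 0.40, adjusted p = 0.0694) were not, except in the fit with the Set as a block described below. Col9a1, of the type IX collagen that coats type II fibrils, followed under DMSO, at 0.06, 0.15 and 0.02 TPM in E+F+ and 0.37, 1.04 and 0.25 TPM in E+F- (-2.74 ± 0.74, adjusted p = 0.0131). It was not called without E+F+ Set 1, E+F+ Set 3 or E+F- Set 2, with adjusted p up to 0.0913. The genes of the other type IX chains did not pass the test, at -0.96 for Col9a2 and -0.91 for Col9a3. Type XI chains, which share cartilage fibrils with type II, did not either (Col11a1 -0.63 ± 0.32, adjusted p = 0.158 and Col11a2 -0.52 ± 0.38, adjusted p = 0.339).

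The streak and presomitic mesoderm list had the same direction as these cartilage-type chains. Its sum was 3.55 to 5.79 TPM in E+F+ DMSO, 871 to 1663 TPM in E+F- DMSO and 82.1 to 553 TPM in unsorted DMSO libraries, and its part in the values of Col2a1, Col24a1 and Col27a1 was not tested.

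Of the 18 other collagens tested, 1 was called higher and 6 were called lower in E+F+ cells under DMSO. Among those lower were 3 transmembrane collagens, which sit in the plasma membrane of the cell that makes them. Col13a1, known from the neuromuscular junction, was at 1.06, 0.71 and 0.62 TPM in E+F+ DMSO and 22.4, 18.5 and 14.2 TPM in E+F- DMSO (-4.43 ± 0.85, adjusted p = 0.00169). Under IWR-1 it was at 1.72, 1.34 and 0.46 TPM in E+F+ and 28.1, 31.2 and 6.39 TPM in E+F- (-4.24 ± 0.84, adjusted p = 0.00239). Col25a1, a transmembrane collagen of neurons, was at 0.04, 0.05 and 0.03 TPM in E+F+ and 0.56, 0.29 and 0.83 TPM in E+F- under DMSO (-3.38 ± 0.50, adjusted p = 0.000277) and at 0.03, 0.03 and 0.04 TPM in E+F+ and 0.38, 0.42 and 0.38 TPM in E+F- under IWR-1 (-3.66 ± 0.54, adjusted p = 0.000394). Col23a1 was at 1.53, 1.24 and 1.25 TPM in E+F+ and 4.24, 4.77 and 4.56 TPM in E+F- (-1.64 ± 0.51, adjusted p = 0.0261) and, under IWR-1, at 1.44, 0.97 and 1.66 TPM in E+F+ and 16.9, 13.9 and 6.61 TPM in E+F- (-3.22 ± 0.53, adjusted p = 0.000769). No E+F+ library reached an E+F- library for any of the 3 genes. Single left-out libraries ended only the DMSO call of Col23a1, which was lost without any but E+F- Set 3, with adjusted p up to 0.0799.

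Col14a1, which encodes a fibril-associated collagen of tendon and skin, had the largest fitted difference of all members under DMSO, from few reads. The E+F+ DMSO libraries held expected counts of 2, 3 and 0, and the E+F- DMSO libraries 54, 80 and 21. It was at 0.02, 0.03 and 0 TPM in E+F+ DMSO and 0.7, 0.85 and 0.31 TPM in E+F- DMSO (-4.85 ± 1.40, adjusted p = 0.0186), and at 0.06, 0.07 and 0.01 TPM in E+F+ and 6.78, 6.8 and 1.78 TPM in E+F- under IWR-1 (-6.62 ± 1.26, adjusted p = 0.0019). The DMSO call was lost without E+F+ Set 1 or Set 3 (adjusted p up to 0.0737), without Set 1 or Set 2 of all 6 groups (up to 0.171) and in either limma fit. Col22a1, a fibril-associated collagen of tissue junctions such as that of muscle and tendon, differed by -0.94 under DMSO and -0.87 under IWR-1 (adjusted p = 0.0251 and 0.0398). Those calls were lost without any of 3 and 5 of the 6 libraries (E+F+ Sets 1 and 3 and E+F- Set 2 under DMSO, all but E+F+ Set 3 under IWR-1), with adjusted p up to 0.0987 and 0.123. Col26a1 was called under IWR-1 alone (-1.42 ± 0.38, adjusted p = 0.0148, against -0.54 ± 0.37, adjusted p = 0.304 under DMSO), and not without E+F+ Set 2, E+F- Set 1 or E+F- Set 2 (adjusted p up to 0.0614).

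Col8a2 was called higher in E+F+ cells under both treatments, and Col18a1 under IWR-1 alone. Col8a2, of the network-forming collagen of the cornea and vessel walls, was at 0.9, 1.7 and 0.66 TPM in E+F+ DMSO and 0.19, 0.33 and 0.27 TPM in E+F- DMSO (2.14 ± 0.69, adjusted p = 0.0305), and its difference under IWR-1 was 2.40 ± 0.69 (adjusted p = 0.0207). The DMSO call was lost without E+F+ Set 2 or any E+F- library (adjusted p up to 0.119), and the IWR-1 call without Set 1 or Set 2 of either population (up to 0.0794). Col18a1 was at 54.6, 52.9 and 62.02 TPM in E+F+ DMSO and 12.7, 18.5 and 43.85 TPM in E+F- DMSO, and at 73.5, 63.6 and 80.2 TPM in E+F+ and 12.5, 13.3 and 55.9 TPM in E+F- under IWR-1. The populations did not overlap under either treatment. The difference was called under IWR-1 (1.47 ± 0.48, adjusted p = 0.0387) but not under DMSO (1.33 ± 0.48, adjusted p = 0.0524). Without E+F- Set 3 the DMSO difference was 1.92 (adjusted p = 0.0161), and the IWR-1 call was lost without any 1 library but E+F- Set 3 (adjusted p up to 0.134). Type VI collagen, which builds beaded microfibrils, gave no call. Col6a3, its largest chain, was at 0.53, 0.14 and 0.29 TPM in E+F+ and 0, 0.01 and 0.08 TPM in E+F- (3.57 ± 1.31, adjusted p = 0.0547), and Col6a1 differed by 0.86 (adjusted p = 0.34). Without E+F- Set 3, Col6a3 was called under either treatment (adjusted p = 0.0316 and 0.0183).

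Leaving a whole Set out of all 6 groups changed the counts of these comparisons. Under DMSO, 7 members were called without Set 1, 6 without Set 2 and 25 without Set 3, where 11.9%, 10.3% and 20.7% of all genes were called. Under IWR-1 the counts were 7, 3 and 23, where 10.0%, 7.95% and 18.7% of all genes were called. Without E+F- Set 3 alone, Col1a1, Col5a1, Col6a3, Col24a1, Lama1 and Lamc1 were added to the calls under IWR-1. Among the calls made without Set 3, 16 of 25 and 14 of 23 were shared with those of all Sets. Of the 18 DMSO calls 5 held without each of the Sets in turn, those of Col2a1, Col24a1, Col25a1, Col27a1 and Col4a5, and of the 16 IWR-1 calls 3 did, those of Col25a1, Col4a5 and Col4a6. Limma on log2(TPM + 1) also did not call Col5a2 under DMSO or Col8a2 under either treatment, neither limma fit called Col22a1 under IWR-1, and a fit of only these groups did not call Col18a1, Col22a1 or Col26a1 under IWR-1. Under IWR-1, samples with the same Set number deviated together (correlations of 0.19 to 0.29), and with the Set as a block 26 members were called, 15 higher and 11 lower, where 31.0% of all genes were. The 10 members added were Col1a1, Col5a1, Col6a1, Col6a3, Col12a1 and Lamc1, which were higher in E+F+, and Col2a1 (adjusted p = 0.0181), Col24a1 (0.0439), Col9a2 and Col9a3, which were lower.

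**Figure D4:**
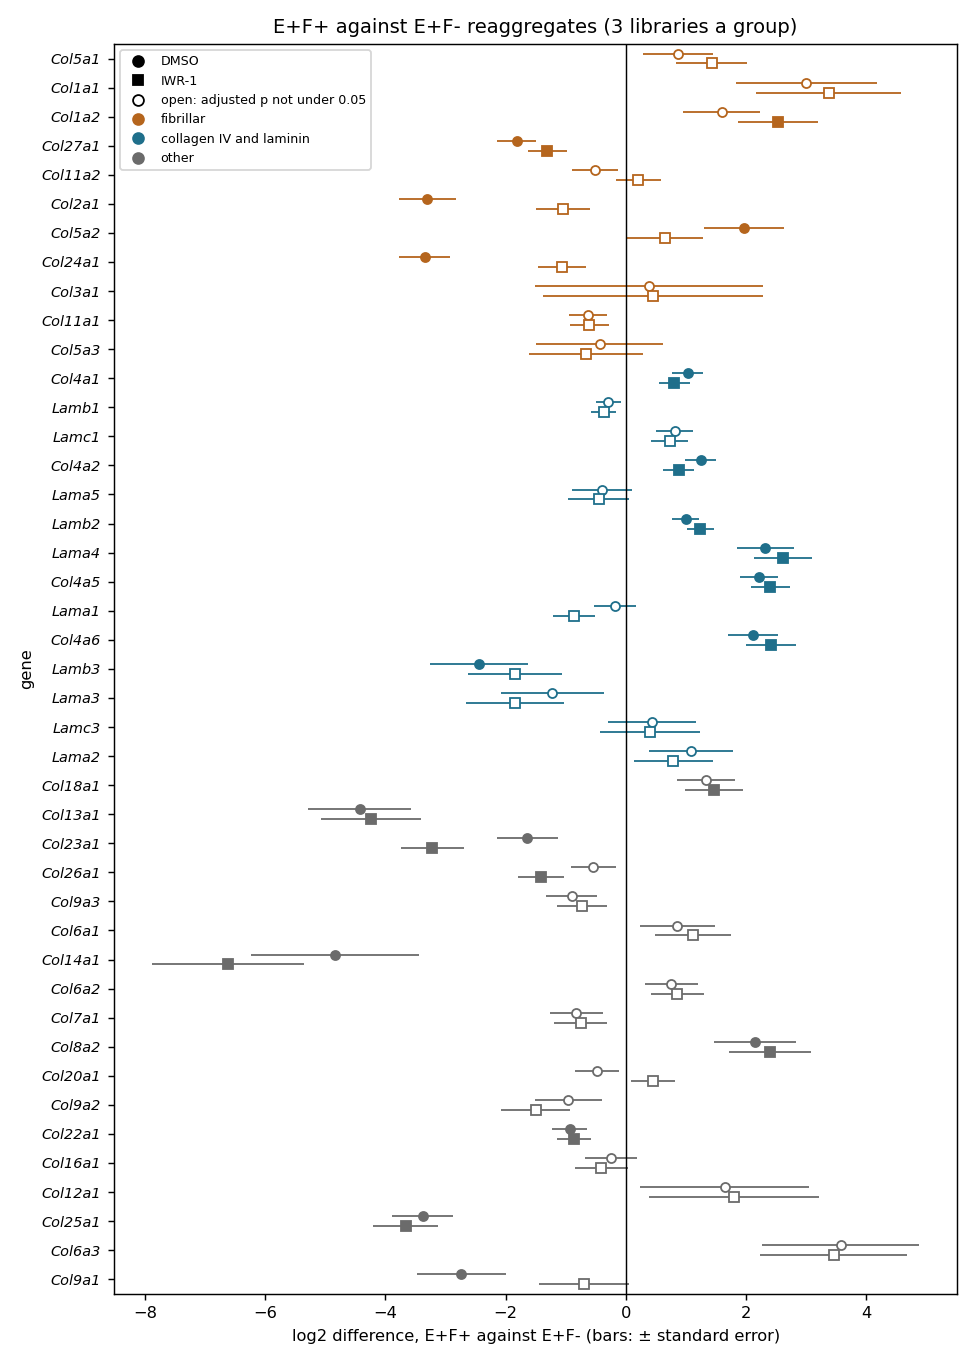
Log2 difference of E+F+ against E+F- libraries for 43 of the 44 tested members (rows), under DMSO (circles) and IWR-1 (squares), with ± standard error from edgeR over 18 libraries. Filled symbols have an adjusted p under 0.05. The 4 collagen IV genes, Lama4 and Lamb2 lie to the right under both treatments, and Col13a1, Col14a1, Col23a1, Col25a1 and Col27a1 to the left.

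Unsorted reaggregates served as the reference for each population, and both comparisons use the same unsorted libraries. In E+F+ against unsorted DMSO libraries 4 members were called, all lower in E+F+, where 10.6% of all tested genes were called, 5.85% lower and 4.70% higher. They were Col27a1 (-1.86 ± 0.33, adjusted p = 0.00493), Col2a1 (-2.39 ± 0.46, adjusted p = 0.00769), Col24a1 (-1.38 ± 0.41, adjusted p = 0.0428) and Col25a1 (-1.74 ± 0.52, adjusted p = 0.0435). Unsorted DMSO libraries held 8.49, 5.46 and 3.81 TPM of Col27a1 and 3.42, 2.12 and 1.14 TPM of Col2a1, above every E+F+ DMSO library. The Col24a1 call was lost without any 1 of the 6 libraries and the Col25a1 call without any but unsorted Set 3, with adjusted p up to 0.14 and 0.202. The Col27a1 and Col2a1 calls held without any 1 library, with adjusted p up to 0.0268 and 0.0391. Without E+F+ Set 3 the Col24a1 and Col25a1 calls were lost and Lamb2 was called (adjusted p = 0.0479). Without Set 1 of all 6 groups edgeR called 0 members (0.459% of all genes), without Set 2 again 0 (0.380%), and without Set 3 it called 10 (11.3%). Same-numbered samples deviated together here too, by correlations of 0.10 to 0.37. With the Set as a block 10 members were called, where 20.3% of all genes were. Added were Col1a2, Col4a5 and Col4a6, which were higher in E+F+, and Col7a1, Col9a3 and Col14a1, which were lower.

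In E+F- against unsorted DMSO libraries 9 members were called, 4 higher and 5 lower, where 9.48% of all tested genes were, 4.56% higher and 4.92% lower. Collagen IV was lower in E+F- cells. The log2 difference was -1.42 ± 0.26 (adjusted p = 0.00531) for Col4a1, -1.55 ± 0.26 (adjusted p = 0.00333) for Col4a2, -1.33 ± 0.31 (adjusted p = 0.0169) for Col4a5 and -1.27 ± 0.40 (adjusted p = 0.0591) for Col4a6, the last of which was not called. Unsorted DMSO libraries held 84.6, 83.03 and 131 TPM of Col4a1, above all E+F- libraries, and 57.7, 56.7 and 86.2 TPM of Col4a2. Lama4 (-1.82 ± 0.47, adjusted p = 0.0265) and Col8a2 (-3.40 ± 0.70, adjusted p = 0.00885) were lower as well. Higher were Col13a1 (3.56 ± 0.81, adjusted p = 0.0143), Col24a1 (1.97 ± 0.40, adjusted p = 0.00763), Col25a1 (1.65 ± 0.44, adjusted p = 0.0308) and Col26a1 (1.37 ± 0.38, adjusted p = 0.0352). Unsorted DMSO libraries held 3.44, 0.7 and 0.61 TPM of Col13a1 and 0.9, 0.52 and 0.85 TPM of Col24a1. No unsorted DMSO library reached an E+F- DMSO library for either gene. Left-out single libraries ended 6 of the 9 calls. Without unsorted Set 2 the calls of Col13a1, Col24a1, Col25a1, Col26a1, Col4a5 and Lama4 were lost. Without unsorted Set 3 the calls of Col13a1, Col25a1, Col4a5 and Lama4 were lost. Without unsorted Set 1, Col26a1 was lost. Without E+F- Set 1 the calls of Col25a1, Col26a1, Col4a5 and Lama4 were lost, and without E+F- Set 2 those of Col26a1, Col4a5 and Lama4. Without E+F- Set 3 that of Col25a1 was lost, while Col18a1 and Lamc1 were gained. The calls of Col4a1, Col4a2 and Col8a2 held in each of these fits. Without Set 1, Set 2 or Set 3 of all 6 groups the counts were 4, 0 and 15, where 3.62%, 0.00718% and 10.9% of all genes were called.

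The effect of Wnt inhibition on the matrix genes was tested by comparing IWR-1 with DMSO within each population. In E+F+ cells edgeR called 0 of 44 members and 0 of 13826 genes. Only Col26a1 had an unadjusted p under 0.05, and DESeq2, limma and the fit with the Set as a block also called 0 members, the last with 0.0651% of all genes. Col26a1 was at 6.7, 4.51 and 5.24 TPM under DMSO and 2.48, 1.88 and 3.16 TPM under IWR-1 (-1.15 ± 0.38, adjusted p = 0.851), lower in 3 of 3 Sets. The median difference over tested members was 0.11, beside 0.01 over all genes. Col4a1, at 63.1, 54.8 and 78.4 TPM under IWR-1, overlapped its DMSO range (-0.13 ± 0.26, adjusted p = 0.997), and so did Lama4 (-0.08 ± 0.45, adjusted p = 0.997).

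In E+F- cells 1 member was called, Col24a1, where 0.521% of all tested genes were, 0.130% higher and 0.391% lower. It was at 4.02, 2.33 and 2.45 TPM under DMSO and 0.93, 0.84 and 0.41 TPM under IWR-1, a log2 difference of -1.90 ± 0.39 (adjusted p = 0.047). It was lower in 3 of 3 Sets and the groups did not overlap, but the call was lost without any 1 of the 6 libraries, with adjusted p of up to 0.254. Without Set 1 or Set 2 of all 6 groups 0 members were called (0.0143% and 0.0215% of all genes), and without Set 3 there were 4 (0.857%). The DMSO and IWR-1 libraries of a Set deviated together in each population (correlations of 0.34 to 0.75), so these comparisons are also given with the Set as a block. In that fit 4 members were called in E+F- cells, where 1.49% of all genes were. Col24a1 (-1.92 ± 0.34, adjusted p = 0.0116), Col2a1 (-1.87 ± 0.32, adjusted p = 0.00956) and Col27a1 (-0.98 ± 0.19, adjusted p = 0.0185) were lower under IWR-1 and Col14a1 (3.09 ± 0.54, adjusted p = 0.00956) was higher.

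These 4 genes kept their directions in every Set of E+F- cells. Col2a1 was at 6.04, 2.97 and 3.7 TPM under DMSO and 1.04, 0.77 and 1.3 TPM under IWR-1, without overlap, and gave -1.97 ± 0.44 (adjusted p = 0.0705) without the block. Col27a1 was at 6.55, 4.4 and 6.54 TPM under DMSO and 3.28, 3.04 and 2.18 TPM under IWR-1, again without overlap (-0.94 ± 0.32, adjusted p = 0.345). Col14a1 was at 0.7, 0.85 and 0.31 TPM under DMSO and 6.78, 6.8 and 1.78 TPM under IWR-1 (3.13 ± 0.99, adjusted p = 0.275), and every IWR-1 library was above every DMSO library. Of the 11 genes of the streak and presomitic mesoderm list, Msgn1 and Wnt3a were also called lower under IWR-1 in E+F- cells without the block. Over all tested genes 0.391% were. The sum of that list was 827 to 930 TPM under IWR-1. Its part in these values was not tested.

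In unsorted cells edgeR called 0 of 44 members, where 0.0940% of all tested genes were called. There were 7 members with an unadjusted p under 0.05, and DESeq2 and limma called 0. With the Set as a block 1 member was called, where 0.868% of all genes were. It was Col14a1 (3.46 ± 0.56, adjusted p = 0.0145), at 0.56, 0.33 and 0.05 TPM under DMSO and 9.13, 4 and 0.16 TPM under IWR-1, higher in 3 of 3 Sets (3.77 ± 1.04, adjusted p = 0.217 without the block). The Set 3 values of the groups were far below those of Sets 1 and 2, so that the groups overlapped, and without IWR-1 Set 3 the gene was called with no block (4.34, adjusted p = 0.0335). Several abundant chains were lower under IWR-1 in 3 of 3 Sets of unsorted cells without passing the test. Col4a1 was at 52.6, 55.8 and 93.4 TPM under IWR-1 (-0.57 ± 0.26, adjusted p = 0.553), Col4a2 at 34.5, 35.6 and 59.7 TPM (-0.63 ± 0.26, adjusted p = 0.493) and Lama1 at 2.95, 3.17 and 3.75 TPM (-0.74 ± 0.34, adjusted p = 0.567). Col1a1 was at 5.8, 14.6 and 28.2 TPM under DMSO and 0.66, 1.72 and 12.7 TPM under IWR-1 (-1.70 ± 1.10, adjusted p = 0.722).

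**Figure D5:**
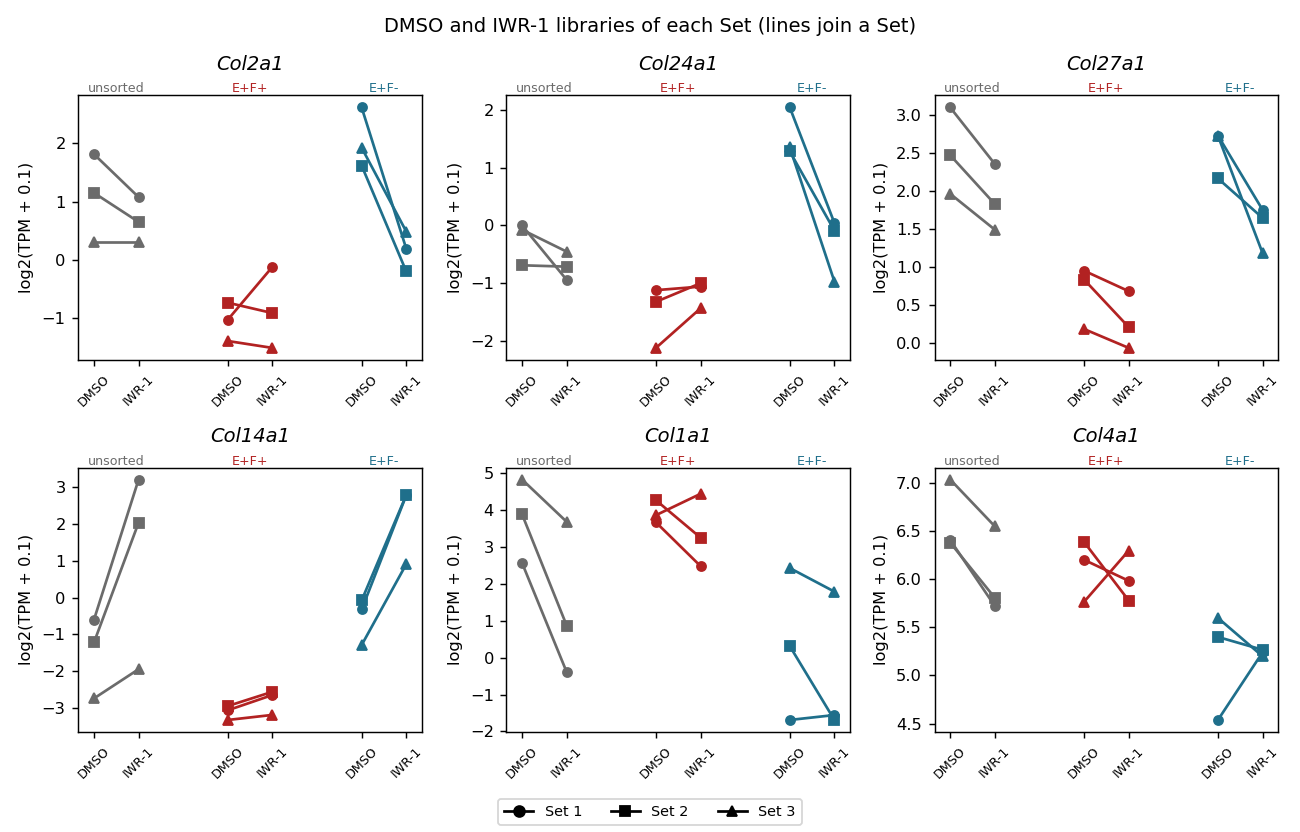
Levels of 6 members, as log2(TPM + 0.1), in the DMSO and IWR-1 libraries of each Set, joined by a line, in unsorted, E+F+ and E+F- cells. In E+F- cells the 3 lines of Col2a1, Col24a1 and Col27a1 fall and those of Col14a1 rise, and in unsorted cells those of Col14a1 rise and those of Col1a1 and Col4a1 fall.

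The differences between these IWR-1 effects were tested as well. For E+F+ against E+F- cells edgeR called 0 members and 0.0289% of all genes, with 3 members at an unadjusted p under 0.05, and limma on log2(TPM + 1) called 1, Col24a1 (adjusted p = 0.0343). DESeq2, limma on log2(TPM + 0.1) and the fit with the Set as a block called 0. For E+F+ against unsorted cells and for E+F- against unsorted cells all of these fits called 0 members, with 0 and 2 members at an unadjusted p under 0.05. Accordingly, an IWR-1 effect that was called in E+F- cells and not in E+F+ cells was not shown to differ between them.

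Collagen chains need enzymes and chaperones to mature, and a list of 30 such genes was followed, of which 27 were tested. Under DMSO 11 were higher in E+F+ than in E+F- cells and 5 were lower (59.3% in all, beside 26.6% of all tested genes), with a median log2 difference of 0.15. Those with the smallest adjusted p were Pcolce2, an enhancer of procollagen cleavage (-2.37 ± 0.33, adjusted p = 0.000195), P4hb, a subunit of prolyl hydroxylase (0.67 ± 0.11, adjusted p = 0.000401), and Plod1, a lysyl hydroxylase (-1.02 ± 0.16, adjusted p = 0.000431). Under IWR-1 6 were higher and 4 lower (37.0%, beside 22.5% of all genes), led by Adamts2, a procollagen peptidase (4.73 ± 0.72, adjusted p = 0.000478). For IWR-1 against DMSO edgeR called 0 of the 27 genes in each population, with 2, 7 and 3 at an unadjusted p under 0.05 in E+F+, E+F- and unsorted cells. DESeq2 and the fit with the Set as a block each called 3 genes in E+F- cells (1 higher and 2 lower), beside 1.56% and 1.49% of all genes, and 1 higher in unsorted cells, beside 1.15% and 0.868%. Limma called at most 1 in any population.

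Proteins that build basement membranes together with collagen IV and laminin, such as nidogens and perlecan, were listed as partners. Of 15 tested partners 2 were higher and 4 lower in E+F+ under DMSO (beside 26.6% of all genes called), with a median of -0.58. Under IWR-1 0 were higher and 4 lower (26.7%, beside 22.5%), and with the Set as a block 1 was higher and 6 were lower (46.7%, beside 31.0%). Hmcn1, the gene of the large matrix protein hemicentin 1 (-2.71 ± 0.49, adjusted p = 0.00108), and Fn1, that of fibronectin (-1.75 ± 0.40, adjusted p = 0.00468), were lower. Smoc2, the gene of a calcium-binding matrix protein, was higher (3.72 ± 1.07, adjusted p = 0.0181). Hspg2, whose product perlecan bridges the laminin and collagen IV sheets, was lower in E+F- than in unsorted cells (-1.17 ± 0.33, adjusted p = 0.0374).

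The genes of receptors for collagen and laminin were followed too. Of 14 tested 1 was higher and 2 were lower in E+F+ under DMSO, 21.4% beside 26.6% of all genes, so that calls were no more frequent here than over all genes. Itga6, a chain of laminin-binding integrins, was at 4.8, 4.67 and 3.3 TPM in E+F+ DMSO and 12.41, 15.69 and 19.97 TPM in E+F- DMSO, without overlap (-1.78 ± 0.29, adjusted p = 0.000587). Itga1 (-1.10 ± 0.31, adjusted p = 0.0175) and Itga11 (1.94 ± 0.63, adjusted p = 0.0328) encode chains of collagen-binding integrins. Among 12 tested matrix proteases and inhibitors 4 were higher and 1 was lower (41.7%, beside 26.6%). They included the inhibitor gene Timp2 (1.21 ± 0.17, adjusted p = 0.000208) and the protease genes Mmp11 (0.81 ± 0.12, adjusted p = 0.000338) and Mmp15 (1.70 ± 0.34, adjusted p = 0.0021), all of them higher.

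The 11 members that were not tested were Col4a3, Col4a4 and 9 other collagens (Col6a4, Col6a5, Col6a6, Col8a1, Col10a1, Col15a1, Col17a1, Col19a1 and Col28a1). None exceeded 0.14 TPM in any library. Among them, Col10a1 marks hypertrophic cartilage and Col17a1 anchors the epidermis, and their low counts allow no comparison at this depth.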

How the data were processed

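The authors sequenced poly(A) RNA of 18 libraries, made with an unstranded TruSeq kit, demultiplexed reads with CASAVA 1.8.2, aligned them to RefSeq transcripts (mm10) with Bowtie 0.12.9 and quantified genes with RSEM 1.2.3. The authors deposited a table of expected counts and a table of TPM per gene. The sequence reads themselves were not used here.

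The expected counts were first rounded, then normalised by TMM in edgeR 4.0.16 (R 4.3.3). Genes with low counts were removed by filterByExpr over the 6 groups, which left 13826 of 20321 genes. A quasi-likelihood model with 1 coefficient per group was fitted to all 18 libraries, and 7 comparisons and 3 differences between IWR-1 effects were tested, with Benjamini-Hochberg adjustment over all tested genes and a threshold of 0.05. A standard error is the log2 difference divided by the square root of its F statistic. The model was tested on simulated data.

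Alternatives were median-of-ratios size factors, DESeq2 1.42.0, no filter on low counts, limma 3.58.1 on log2(TPM + 1) and on log2(TPM + 0.1), the Set as a block, fits of only the groups compared, and leaving out each library and each Set. A Set was left out of all 6 groups at once. The Sets are numbered alike in all groups. Their deviations from group means were correlated above 0.1 in every Set for IWR-1 against DMSO, E+F+ against E+F- under IWR-1, and E+F+ against unsorted cells, so blocked values stand beside those results. The chi-square of replicate pairs within a group was 16.4 to 89.0 per degree of freedom, so no library was a copy of another in its group. Pairs across groups were not compared in this way.

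Members follow from their symbols. Those described in every library were 15 chosen genes and, per comparison, up to 5 called members in each direction with the smallest adjusted p, and up to 3 genes were named from each pathway list. The remaining members are given by counts and single values. Of the tested members, 1 is not reported singly here and is left out of the figures, while the counts and sums over members include it. The members and lists were chosen with earlier results of these data known. Genome positions are those of GENCODE M21, and promoters are those of RefSeq on GRCm38, where 40 of 55 members had an entry.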

Additional observations from a re-analysis of the deposited data

Results flagged for a closer look

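In 2 genes the libraries of every Set moved one way under IWR-1 in one population and the other way in another. Col24a1, a fibrillar collagen gene of developing bone, was higher under IWR-1 in all 3 Sets of E+F+ cells and lower in all 3 Sets of E+F- cells. In E+F+ cells, from the low levels given above, the log2 ratios of TPM + 0.1 were 0.061, 0.322 and 0.686. The rise in Set 1 was thus slight. The difference between the effects was 2.28 ± 0.57 on the log2 scale and did not pass the test (edgeR, adjusted p = 0.627). Col24a1 was also lower in all 3 Sets of unsorted cells, and the effect in E+F+ cells exceeded that in unsorted cells by 0.90 ± 0.57 (adjusted p = 1). Col20a1, the gene of a fibril-associated collagen, was higher in E+F+ and lower in E+F- cells, with a difference of 0.92 ± 0.52 (adjusted p = 1). Of all genes tested, 5.81% had opposite directions in every Set of E+F+ and E+F- cells, and 2.79% in unsorted and E+F+ cells. Among the 44 tested members these were 2 genes and 1 gene, so opposite directions were no more frequent here than over all genes.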

How the results depend on the processing

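Of 70 counts of called members recomputed without leaving out libraries, 59 were within 1.5 times the count reported. The others were as follows. With the Set as a block, 26 members were called in E+F+ against E+F- under IWR-1, 10 between E+F+ and unsorted cells, 19 between E+F- and unsorted cells (beside 20.5% of all genes), 4 for IWR-1 in E+F- cells and 1 for IWR-1 in unsorted cells. Between E+F- and unsorted cells the numbers did not pair all the samples (correlations of -0.01 to 0.44, and 3 of 6 libraries correlated best with their own Set). For E+F+ against E+F- under DMSO all same-Set correlations were positive and 6 of 6 libraries correlated best with their own Set, which hints at pairing. The lowest correlation, 0.0977, was not over 0.1, but that cut parts near-equal values. For E+F+ against unsorted cells the lowest was 0.1002, and unsorted Set 1 correlated more with E+F+ Set 2 (0.129). E+F- DMSO Set 1 correlated more with E+F- IWR-1 Set 2 (0.4026) than with its own Set (0.3454). For E+F+ against E+F- under DMSO the block gave 27 calls (beside 35.9% of all genes), against 18 without it (26.6%). In E+F+ against unsorted cells, 2 members were called with no filter on low counts and 2 by limma on log2(TPM + 1). For IWR-1 in E+F- cells, DESeq2 called 2, limma on log2(TPM + 1) 2 and a fit of only these groups 0. Limma on log2(TPM + 1) called 1 for the difference between IWR-1 effects in E+F+ and E+F- cells.

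Leaving out libraries or Sets gave 6 to 25 calls in E+F+ against E+F- under DMSO, 3 to 23 under IWR-1, 0 to 10 against unsorted cells for E+F+ and 0 to 15 for E+F-, 0 to 4 for IWR-1 in E+F- cells and 0 to 1 in unsorted cells. The share of all genes called moved too. For E+F+ against E+F- it went from 10.3% without Set 2 to 20.7% without Set 3 under DMSO, and from 7.95% to 18.7% under IWR-1. The log2 difference of E+F+ and E+F- cells, which was not called, changed its sign for Col3a1 (-0.57 to 4.91 under DMSO and -0.49 to 4.81 under IWR-1), Lama5 (-0.82 to 0.40 and -0.87 to 0.56), Lama1 (-0.41 to 0.20 under DMSO) and Lamb1 (-0.61 to 0.21 under DMSO), as did the IWR-1 effect in E+F+ cells for Col2a1 (-0.24 to 0.60). The cause was not tested. With 3 libraries a group, members under about 1 TPM have wide errors.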
